A study of Mus musculus with 8 samples.

Results

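A set of 10 genes of epithelial identity was followed through every library of the study: the adhesion genes Cdh1 and Epcam, the claudins Cldn4, Cldn6 and Cldn7, the keratins Krt8, Krt18 and Krt19, and the regulators Esrp1 and Foxa2. They are 10 of the 20701 gene symbols in the deposited table, taken by name, and where a symbol had several transcripts the one with most counts on average was used. The names were selected on the counts of these same libraries, in particular on high counts of epithelial genes in Isl1_hypo replicate 1, so that the values over all 8 libraries are a description and not a test. RNA was taken at E10.5 from individual C57BL/6 mouse embryos, of which the outflow tract was dissected together with the right ventricle (OFT/RV), with 4 wild type controls (CTRL) and 4 Isl1 hypomorphs (Isl1_hypo). In the hypomorph, both copies of the gene for the LIM-homeodomain transcription factor Isl1 are the f;neo allele, which lowers Isl1 expression without removing it. Each library was 1 embryo and 1 dissection, with no sorting of cells, so that any tissue kept with the OFT/RV piece would be part of the RNA.

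Epithelial cells are held together by E-cadherin, the product of Cdh1, at adherens junctions and are sealed by claudins at tight junctions. Their intermediate filaments are keratin pairs, with Krt8 and Krt18 the first pair of the embryo and Krt19 a common further partner in simple epithelia. The heart at midgestation is mostly muscle, endocardium and cushion mesenchyme, and its main epithelial layer is the epicardium, a mesothelium that carries simple keratins, whereas surface ectoderm and pharyngeal endoderm lie next to the outflow tract. Repressors of the Snail and Zeb families silence Cdh1 and other epithelial genes through the E-box CACCTG when cells turn mesenchymal.

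The promoter sequences are shown for the members with a RefSeq entry on which the results turn, so that the E-boxes can be read beside the levels. Of the 10 members, 7 had an entry, and Cdh1, Esrp1 and Krt19 had none. Each sequence is the 250 bases before the annotated start, 5′ to 3′ on the strand of the gene in build GRCm38.p6, with CACCTG or its reverse complement CAGGTG in capitals.
Epcam (chr17:87635729-87635978, plus strand): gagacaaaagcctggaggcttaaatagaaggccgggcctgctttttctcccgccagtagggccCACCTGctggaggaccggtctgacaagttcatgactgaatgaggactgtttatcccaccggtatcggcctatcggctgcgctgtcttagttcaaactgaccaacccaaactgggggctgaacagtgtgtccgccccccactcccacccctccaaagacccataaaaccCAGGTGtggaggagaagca
Cldn4 (chr5:134946935-134947184, minus strand): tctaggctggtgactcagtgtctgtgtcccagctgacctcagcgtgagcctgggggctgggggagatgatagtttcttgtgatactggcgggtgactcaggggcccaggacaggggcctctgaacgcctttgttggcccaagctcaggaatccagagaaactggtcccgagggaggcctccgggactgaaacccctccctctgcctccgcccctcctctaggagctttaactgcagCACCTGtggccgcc
Cldn6 (chr17:23679115-23679364, plus strand): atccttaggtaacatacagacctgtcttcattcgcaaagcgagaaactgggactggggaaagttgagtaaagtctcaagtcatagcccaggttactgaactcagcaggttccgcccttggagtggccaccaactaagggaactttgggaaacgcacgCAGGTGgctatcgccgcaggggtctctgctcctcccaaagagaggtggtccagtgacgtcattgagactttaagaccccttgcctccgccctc
Cldn7 (chr11:69965171-69965420, plus strand): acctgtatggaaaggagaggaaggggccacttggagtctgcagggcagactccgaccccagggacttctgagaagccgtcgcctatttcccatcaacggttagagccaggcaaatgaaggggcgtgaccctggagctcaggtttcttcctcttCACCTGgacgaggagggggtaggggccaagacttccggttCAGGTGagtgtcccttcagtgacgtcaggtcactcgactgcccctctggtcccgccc
Krt8 (chr15:102004343-102004592, minus strand): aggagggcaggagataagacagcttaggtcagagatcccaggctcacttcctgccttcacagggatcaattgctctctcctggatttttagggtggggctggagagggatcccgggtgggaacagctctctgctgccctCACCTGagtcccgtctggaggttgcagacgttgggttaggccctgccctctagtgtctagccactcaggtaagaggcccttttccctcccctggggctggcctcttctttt
Krt18 (chr15:102027966-102028215, plus strand): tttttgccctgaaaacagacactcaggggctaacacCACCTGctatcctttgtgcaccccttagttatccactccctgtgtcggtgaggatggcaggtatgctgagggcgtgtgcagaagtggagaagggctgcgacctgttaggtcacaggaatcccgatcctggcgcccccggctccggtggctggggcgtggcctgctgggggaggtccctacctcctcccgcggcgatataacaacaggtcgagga
Every sequence printed here carried the E-box, with 2 copies in Epcam and in the shown Cldn7 promoter and 1 in each of the others, while the 3 Foxa2 entries and another Cldn7 entry had none. The copy of Cldn4 began 14 bases before the start, and the nearest copy of Epcam began 19 bases before it. Over all 32851 promoter entries of the same length, 17.2% held the motif on either strand. The element AACCNGTT, bound by Grainyhead-like factors, was in none of the 10 member entries and in 1.8% of all entries. The E-box was thus found both in members that were almost silent in most libraries (Cldn6) and in members that were abundant in all of them (Krt8, Krt18). These matches are letters in a window and not evidence of binding.

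Isl1, the targeted gene, stood at 29.6, 61.5, 46.2 and 51.3 CPM (counts-per-million, scaled for library size by the TMM method) in CTRL replicates 1 to 4. In Isl1_hypo replicates 1 to 4 it stood at 12.7, 6.86, 7.71 and 11.4 CPM, below every CTRL library. The difference on the log2 scale was −2.29 with an SE of 0.256, and edgeR's quasi-likelihood test gave an adjusted p of 0.0077. The libraries held 29748455 to 46678970 counts in CTRL and 18422250 to 33050295 in Isl1_hypo, and Isl1_hypo replicate 1 was the shallowest. A count of 0 allows up to 3 counts, which is 0.0641 to 0.163 CPM depending on the library. Intervals on ratios of counts and such floors cover counting error only. The cardiac muscle markers summed to 37766 to 48909 CPM in every library, so that heart muscle was present in each; these markers do not tell its regions apart.

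The members fell into 2 patterns. Cdh1, Epcam, Cldn4, Cldn6, Cldn7 and Esrp1 were low or absent in 7 libraries and high in Isl1_hypo replicate 1, whereas the keratins were abundant in all 8 libraries and leaned upwards in the Isl1_hypo group. Foxa2 was barely detected in any library. The bar plots of all members by library show both patterns.

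**Figure D1:**
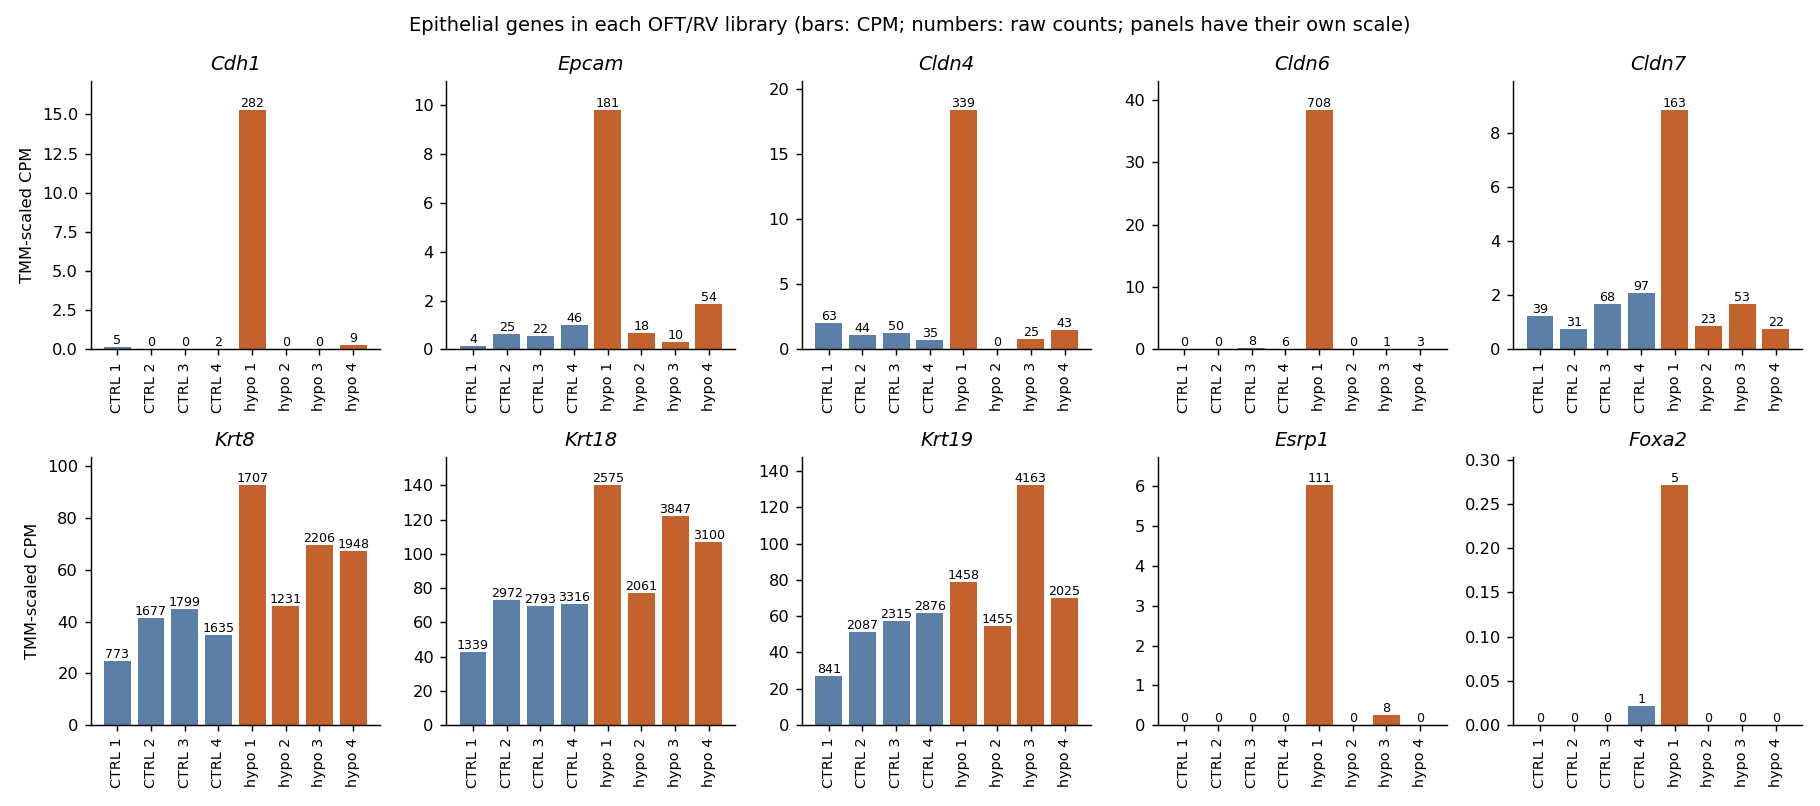
TMM-scaled CPM of the 10 members (vertical axes, each with its own linear scale from 0) in the 4 CTRL libraries (blue) and the 4 Isl1_hypo libraries (orange), with the raw count above each bar. Cldn6 reached 708 counts in Isl1_hypo replicate 1 and at most 8 elsewhere, while Krt8 held 773 counts or more in every library.

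Cdh1, which encodes E-cadherin (chr8:109127251-109194146, plus strand, build mm9), had 5, 0, 0 and 2 counts in CTRL replicates 1 to 4. It had 282, 0, 0 and 9 counts in Isl1_hypo replicates 1 to 4. The Isl1_hypo replicate 1 value of 15.3 CPM was 49.2 times that of the next library, Isl1_hypo replicate 4 (95% interval 25.5 to 109). Outside these 2 libraries Cdh1 did not exceed 5 counts, and 4 libraries had none. Its neighbour Cdh3, which encodes P-cadherin and lies 46.4 kb away on the same chromosome, did not share the pattern, with 119, 137, 138 and 160 CPM in CTRL and 148, 125, 71.6 and 95 CPM in Isl1_hypo.

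Epcam, a membrane adhesion protein of most epithelia (chr17:88035319-88050446, plus strand, mm9), had 4, 25, 22 and 46 counts in CTRL and 181, 18, 10 and 54 in Isl1_hypo. In contrast to Cdh1, it was detected in all 8 libraries. Isl1_hypo replicate 1 stood at 9.82 CPM, 5.26 times the next library (95% interval 3.86 to 7.27), and the other Isl1_hypo libraries, at 0.316 to 1.87 CPM, overlapped the CTRL range of 0.128 to 0.983 CPM.

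Cldn6, a tight junction claudin of embryonic epithelia (chr17:23816332-23819413, plus strand, mm9), gave the widest gap of any member. It had 0, 0, 8 and 6 counts in CTRL and 708, 0, 1 and 3 in Isl1_hypo. The CPM of 38.4 in Isl1_hypo replicate 1 was 193 times that of CTRL replicate 3, the next highest library (95% interval 97.7 to 450). Cldn9 lies 138 bases from Cldn6 on the opposite strand, and although counting ignored strand it had at most 6 counts in any library.

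Cldn4, another barrier claudin (chr5:135420996-135422804, minus strand, mm9), had 63, 44, 50 and 35 counts in CTRL and 339, 0, 25 and 43 in Isl1_hypo. It was thus present in all CTRL libraries and missing from Isl1_hypo replicate 2. Isl1_hypo replicate 1 reached 18.4 CPM, 9.13 times CTRL replicate 1, the next library (95% interval 6.96 to 12.1). Cldn7 (chr11:69778281-69781387, plus strand, mm9) had 39, 31, 68 and 97 counts in CTRL and 163, 23, 53 and 22 in Isl1_hypo. Its step was the smallest of the 3 claudins, with 8.85 CPM in Isl1_hypo replicate 1 against 2.07 CPM in CTRL replicate 4, a ratio of 4.27 (95% interval 3.3 to 5.55).

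Esrp1, which directs epithelial splice forms (chr4:11259080-11313930, minus strand, mm9), was at 0 in all 4 CTRL libraries and had 111, 0, 8 and 0 counts in Isl1_hypo. Isl1_hypo replicate 1 was 23.8 times Isl1_hypo replicate 3 (95% interval 11.7 to 56.6). Foxa2, a transcription factor of endoderm and floor plate (chr2:147868613-147872705, minus strand, mm9), had 5 counts in Isl1_hypo replicate 1, 1 count in CTRL replicate 4 and none elsewhere. The ratio of 12.7 between these libraries had a 95% interval of 1.42 to 601, and at this depth Foxa2 was close to the detection floor in all 8 libraries.

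Summed over the 7 members that are not keratins, the CTRL libraries held 3.55, 2.46, 3.67 and 4 CPM. Isl1_hypo replicate 1 held 97.1 CPM, and Isl1_hypo replicates 2 to 4 held 1.54, 3.07 and 4.53 CPM, on both sides of the CTRL values. Most of the summed level of the Isl1_hypo group thus came from 1 embryo. For Cldn6 the mean was 9.64 ± 19.2 CPM (SD, n = 4) with that embryo and 0.0451 ± 0.0532 CPM (SD, n = 3) without it, against 0.0817 ± 0.0986 CPM (SD, n = 4) in CTRL. For Cdh1 the corresponding means were 3.9 ± 7.6, 0.104 ± 0.18 and 0.0507 ± 0.0756 CPM. In each of these groups the SD was larger than the mean.

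To see how unusual such a pattern was in the whole table, genes standing apart in 1 library were counted, meaning at least 20 counts in that library and a CPM at least 5 times the highest of the other 7, with counts under 3 in those set to 3. Isl1_hypo replicate 1 had 51 such genes of 12686 with enough counts (0.402%), and the other libraries had 1 to 7. Of the 9 members with at least 20 counts in Isl1_hypo replicate 1, 5 stood apart there (Cdh1, Epcam, Cldn4, Cldn6 and Esrp1), and no member stood apart in any other library. Because the members were named with this library in view, that share is a description. The counts by library in the bar chart of genes standing apart are a description too. This library was singled out for its high epithelial counts, and its 51 genes include the 5 members and 9 genes of the other lists.

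**Figure D2:**
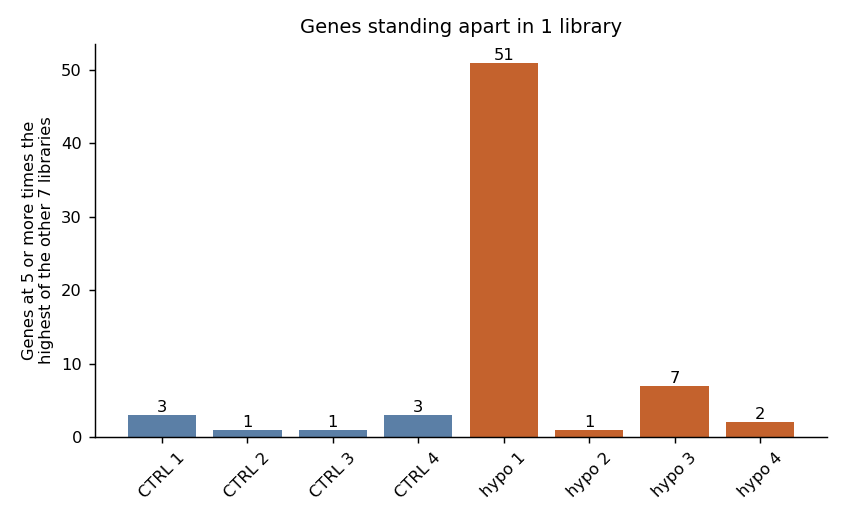
Number of genes (vertical axis) with at least 20 counts in a library and a TMM-scaled CPM at least 5 times the highest of the other 7 libraries, for the CTRL libraries (blue) and Isl1_hypo libraries (orange). Isl1_hypo replicate 1 had 51 genes, and no other library had more than 7.

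In addition, 9 other genes of the epithelial and cell type lists stood apart in Isl1_hypo replicate 1, and 8 of them are described here. Rab25, a GTPase of epithelial recycling endosomes, had 70 counts there and none in the other 7 libraries, at least 33.8-fold higher by the floor of 3 counts per library. Spint1, an inhibitor of epithelial surface proteases, had 420 counts against 43 or fewer, 24.8 times the next library by CPM, and the protease Prss8 was 10.6 times higher. The other genes described were the basal keratin Krt5 at 9.68 times, Wnt6 at 9.21, the polarity gene Crb3 at 8, the desmosomal plakin Ppl at 6.65 and the adaptor subunit Ap1m2 at 5.75 times the next library.

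By list, 5 of 13 epithelial regulators and proteases with at least 20 counts stood apart, 1 of 12 junction and polarity genes, 1 of 9 desmosome genes, 1 of 7 other keratins and none of 5 other claudins. Cardiac muscle, endothelial, mesenchymal, and mesothelial or epicardial markers had none. The abundant junction genes Tjp1 (82.1 CPM in Isl1_hypo replicate 1 and 75.1 to 94.8 CPM elsewhere) and F11r (154 CPM and 110 to 168 CPM) showed no step in that library. Likewise Pkp2 stood at 202 CPM there and at 175 to 220 CPM elsewhere, and Dsp, the plakin of every desmosome including those of heart muscle, was at its lowest there (139 CPM against 169 to 252 CPM). In contrast, Spint2 and Grhl3, the most abundant regulators and proteases, were highest there by small steps. Spint2 stood at 50.5 CPM, 1.73 times the next library (95% interval 1.58 to 1.9), and Grhl3 at 48.4 CPM, 1.65 times (1.51 to 1.8). The strip plot of ratios by list sets these genes side by side.

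**Figure D3:**
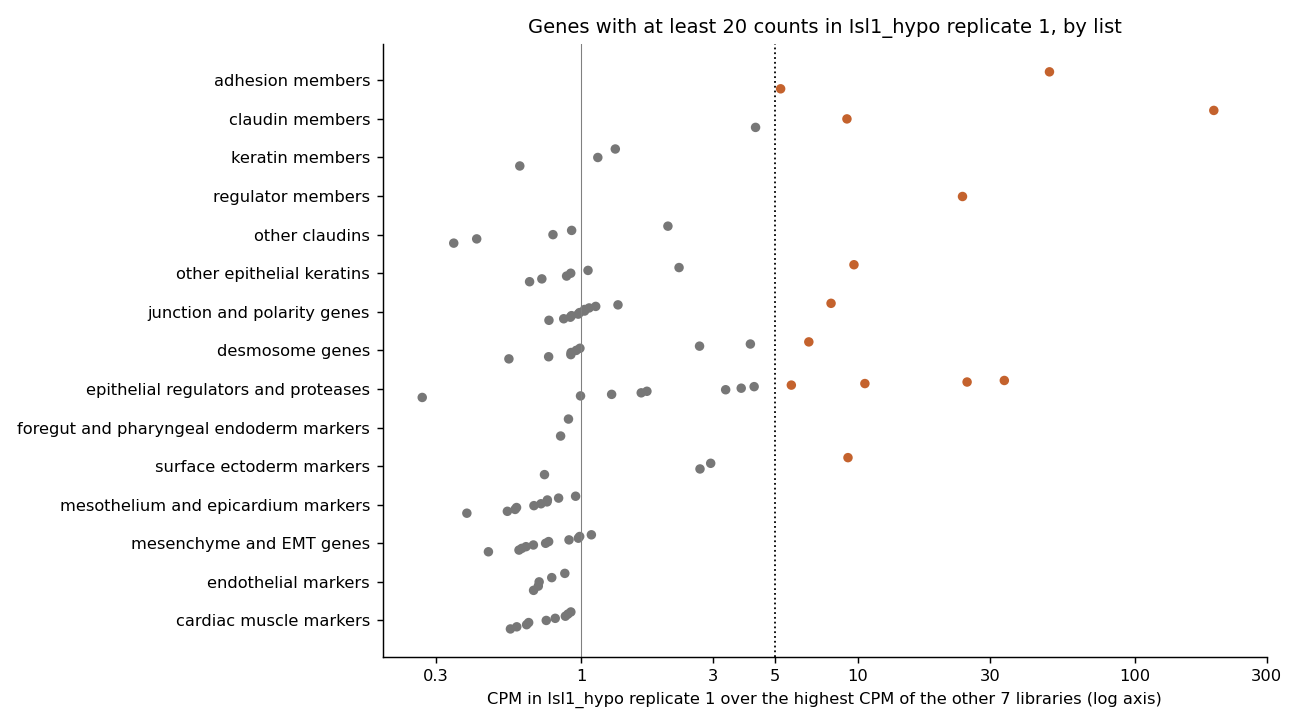
Ratio of the CPM in Isl1_hypo replicate 1 to the highest CPM of the other 7 libraries (log axis) for each gene with at least 20 counts in that library (points), by list, with genes standing apart in orange, Rab25 at its lower bound, 1 gene of the regulators and proteases not shown and a dotted line at 5. The member genes Cldn6, Cdh1 and Esrp1 lie at 193, 49.2 and 23.8, and no mesothelial, mesenchymal, endothelial or cardiac gene passes 5.

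Markers of neighbouring epithelia were read in the same library. Of 12 foregut and pharyngeal endoderm markers, 5 were at 0 in Isl1_hypo replicate 1 and 4 to 7 in each other library, with Shh and Hnf4a at 0 in all 8, and the summed level was 25.4 CPM against 17.2 to 29 CPM in the other libraries, mostly from Hhex and Sox17. Of 8 surface ectoderm markers none was at 0 there or in Isl1_hypo replicate 4, and 1 to 4 were at 0 in the other libraries. Their sum was 87.2 CPM, within the CTRL range of 78.4 to 102 CPM. The other Isl1_hypo libraries held 45.6 to 61.4 CPM. Most of the sum was Gata3, at 73.7 CPM there, 75.6 to 99.7 CPM in CTRL and 44 to 57.9 CPM in the other Isl1_hypo libraries. The sum thus follows Gata3 and does not show the level of the other ectoderm markers. The defining ectodermal gene Trp63 had 0, 0, 0 and 1 counts in CTRL and 7, 10, 0 and 20 counts in Isl1_hypo, where replicates 1 and 2 were at about the same level (0.38 and 0.375 CPM). Of the 8 ectoderm markers 5 were highest in Isl1_hypo replicate 1, namely Wnt6, Tfap2c (2.94 times the next library by CPM), Dlx3 (2.69 times), Tfap2b (1.84 times) and Tfap2a (1.59 times), each of the last 4 with at most 38 counts, and 3 (Trp63, Dlx5 and Gata3) were not. The part that a piece of adjoining epithelium had in the member counts was not tested. In bulk tissue, more cells of a type and more RNA per cell cannot be told apart.

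Outside the lists, the genes most like the members by this ratio were led by Gabrp, a subunit of the GABA-A receptor, with 1186 counts in Isl1_hypo replicate 1 and at most 23 elsewhere (88.6 times), and AU018091, with 155 counts and none elsewhere (at least 74.8-fold higher). They were followed by Aldh3b2 (54 times), Prom2 (42.4 times), Sfn, which encodes 14-3-3 sigma (29.7 times), and the uroplakin Upk2 with 45 counts against at most 1. The 20 highest also held Chst5, Sptlc3, the ectodermal transcription factor Sp6, the tachykinin precursor Tac2 (891 counts, 17.4 times), Gfra3, Nsg2, 2610528J11Rik, the adhesion gene Nectin4 (12.5 times), Gpr50 (11.9 times), the uroplakin Upk1a (11.6 times) and the homeobox genes Hoxc5, Hoxc4, Hoxb7 and Hoxb6. In all, 6 of the 51 genes were Hox genes, each with at most 40 counts in that library. Not all of the 51 were epithelial, since Lum, a proteoglycan of connective tissue named here after its values were seen, had 3617 counts and 196 CPM there against at most 24.6 CPM elsewhere. Of these 51 genes 30 had a promoter entry, 34 entries in all, of which 14 (41.2%) held the E-box against 17.2% of all entries, 3 (8.8%) held AACCNGTT against 1.8%, and 2 (5.9%) held the TATA box TATAAA against 12.4%. Base composition was not matched and none of these differences was tested.

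The keratins behaved otherwise. Krt18 (chr15:101858647-101862457, plus strand, mm9), the type I partner of Krt8, was the most abundant member per length in CTRL, with 28.2 ± 6.01 RPKM (SD, n = 4) as deposited by the authors. Krt19 (chr11:100002124-100009979, minus strand) followed with 22 ± 6.73 RPKM and Krt8 (chr15:101827142-101834773, minus strand), 23.9 kb from Krt18, with 12.4 ± 2.85 RPKM. Krt18 and Krt19 overlapped in their CTRL ranges, and all 3 keratins lay far above Cldn7 (0.677 ± 0.262 RPKM), Cldn4 (0.432 ± 0.188 RPKM) and Epcam (0.169 ± 0.104 RPKM). In Isl1_hypo replicate 1 the order per length was Krt18 at 61.4, Krt19 at 35.3, Krt8 at 31.6, Cldn6 at 15.6, Cldn4 at 6.22, Cldn7 at 4.14, Epcam at 2.93, Cdh1 at 2.12 and Esrp1 at 0.932 RPKM. Cldn6 thus moved from the seventh place in CTRL (0.033 ± 0.0398 RPKM) to the fourth in that embryo.

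Krt8 stood at 24.7, 41.2, 44.7 and 34.9 CPM in CTRL and at 92.6, 46.1, 69.7 and 67.4 CPM in Isl1_hypo. Krt18 stood at 42.8, 73.1, 69.3 and 70.9 CPM in CTRL and at 140, 77.2, 122 and 107 CPM in Isl1_hypo. In both genes the groups did not overlap, by a narrow margin, since Isl1_hypo replicate 2 was close to the highest CTRL library. Krt19 stood at 26.9, 51.3, 57.5 and 61.5 CPM in CTRL and at 79.1, 54.5, 132 and 70 CPM in Isl1_hypo, and the groups overlapped through Isl1_hypo replicate 2. The highest Krt19 level was that of Isl1_hypo replicate 3, not replicate 1. Of the 6 members with enough counts for the test, 2 did not overlap and were higher in Isl1_hypo, against 4.05% of all 13769 genes tested. The Krt8 to Krt18 count ratio kept a narrow range, 0.493 to 0.644 in CTRL and 0.573 to 0.663 in Isl1_hypo, whereas Krt19 to Krt18 ran from 0.566 in Isl1_hypo replicate 1 to 1.08 in Isl1_hypo replicate 3.

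The filter on low counts left Epcam, Cldn4, Cldn7, Krt8, Krt18 and Krt19 and removed Cdh1, Cldn6, Esrp1 and Foxa2. Over all 8 libraries, the log2 fold change of Isl1_hypo over CTRL was 2.44 (SE 0.971) for Epcam, 2.01 (SE 1.17) for Cldn4 and 1.05 (SE 0.744) for Cldn7. It was 0.92 (SE 0.223) for Krt8, 0.80 (SE 0.201) for Krt18 and 0.77 (SE 0.288) for Krt19. The SE of the claudins and Epcam was 3 or more times that of Krt8 in this fit. None of the 6 had an adjusted p under 0.05 by edgeR, and 4 had an unadjusted p under 0.05 and were higher, beside 0.269% and 5.69% of all genes tested. DESeq2 called Krt8 and Krt18, among 319 genes called of 13769. Nothing is read from these counts, since the members were named with the values of these libraries in view.

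Without Isl1_hypo replicate 1, the library named in the choice of members, the estimates of Cldn4 and Cldn7 changed sign and those of the keratins moved less. The log2 fold change of Cldn4 became −0.73 (95% interval −2.87 to 1.40) and that of Cldn7 −0.39 (−1.63 to 0.85), and that of Epcam became 0.73 (−1.10 to 2.56). These 3 intervals span 0, and sizeable changes in either direction lie within them. Krt8 remained at 0.75 (SE 0.215), Krt18 at 0.67 (SE 0.203) and Krt19 at 0.79 (SE 0.317), and their adjusted p-values by edgeR were 0.206, 0.227 and 0.328. By this fit none of the 6 was called, against 0.194% of the 13939 genes tested, and 3 of 6, the keratins, had an unadjusted p under 0.05 and were higher (6.48% of all genes). DESeq2 called Krt8 (adjusted p = 0.0364) and not Krt18 (adjusted p = 0.0556), among 394 genes called of 13939. Isl1_hypo replicate 2 lay just above the highest CTRL library for Krt8 and Krt18 and within the CTRL range for Krt19. As the members were named with these libraries known too, the 7-library counts are also a description.

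**Figure D4:**
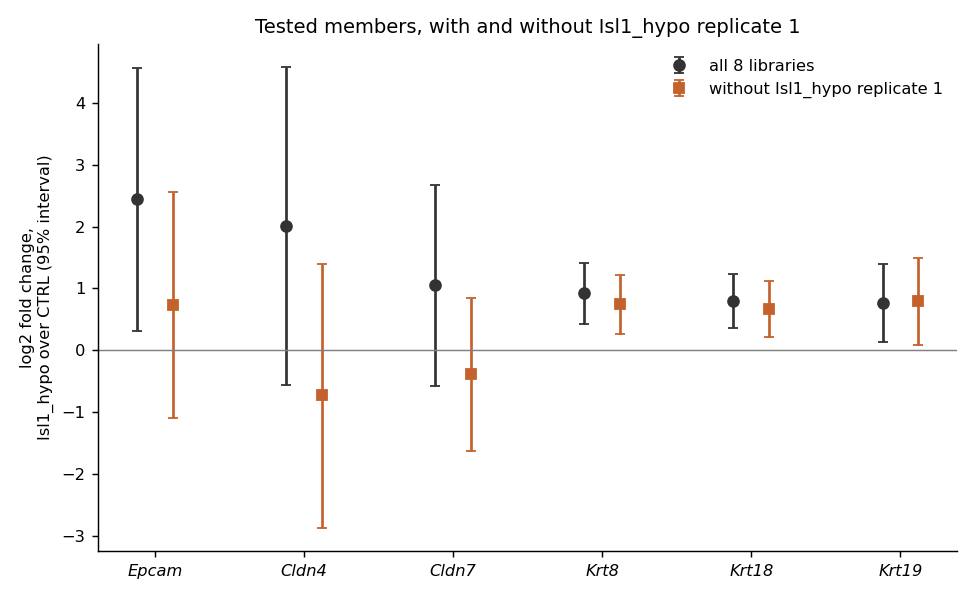
Log2 fold change of Isl1_hypo over CTRL (vertical axis, with 95% intervals from the edgeR standard errors) for the 6 members that passed the filter on low counts, with all 8 libraries (black circles) and without Isl1_hypo replicate 1 (orange squares). Cldn4 moves from 2.01 to −0.73 and Cldn7 from 1.05 to −0.39, while Krt8 moves from 0.92 to 0.75.

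The keratins were lowest in the same library as most genes of the mesothelium and epicardium. All 3 were lowest in CTRL replicate 1, as were 9 of 10 markers on that list, and this embryo held 71.5 CPM over the list against 255 to 450 CPM in the other CTRL libraries and 530 to 840 CPM in Isl1_hypo. This was not particular to these genes. Actc1 and F11r were lowest there too, whereas Tnnt2 and Dsp were highest there, and the share over all genes was not counted. Upk3b, the mesothelial uroplakin, stood at 21.1, 98.3, 86.1 and 154 CPM in CTRL and at 218, 223, 402 and 194 CPM in Isl1_hypo. Lrrn4 stood at 9.11, 39.3, 37.7 and 69.7 CPM in CTRL and at 80.7, 84.4, 70.6 and 78 CPM in Isl1_hypo. Both were higher in every Isl1_hypo library than in any CTRL library, Lrrn4 by a narrow margin (70.6 against 69.7 CPM), as were 6 of the 10 genes of the list, beside 4.05% of all genes, and the other 4 (Tbx18, Msln, Aldh1a2 and Sema3d) overlapped. Isl1_hypo replicate 1 was not the highest of its group for any marker on the list. Krt7, a further simple keratin, was likewise lowest in CTRL replicate 1 and without overlap, with 1.34, 12.5, 11.5 and 21.3 CPM in CTRL and 32.6, 22.8, 35.5 and 25.5 CPM in Isl1_hypo. The next most abundant keratins did not follow it. Krt20 (log2 fold change 0.04, SE 0.203) and Krt10 (−0.41, SE 0.219) overlapped, and Krt10 was highest in CTRL replicate 1. Krt15 (2.05, SE 0.678) did not overlap, but like Krt20 it was lowest in CTRL replicate 4.

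**Figure D5:**
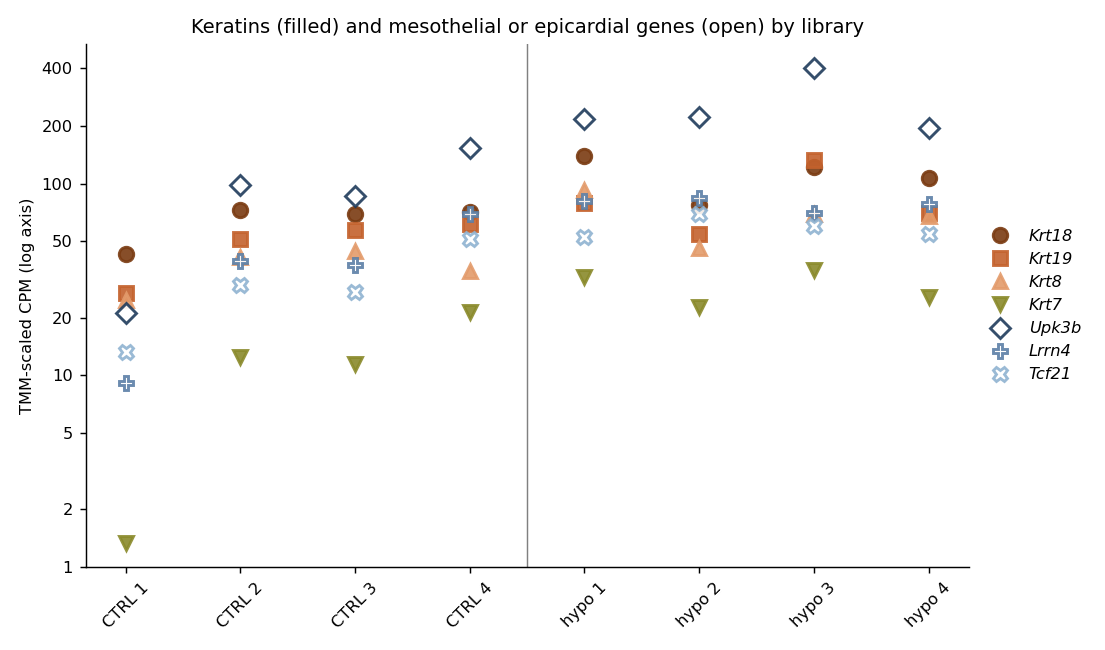
TMM-scaled CPM (log axis) of 4 keratins (filled symbols) and 3 mesothelial or epicardial genes (open symbols) in each of the 8 libraries. CTRL replicate 1 has the lowest value of every gene plotted, and Krt18 and Krt8 peak in Isl1_hypo replicate 1 whereas Upk3b and Krt19 peak in Isl1_hypo replicate 3.

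None of the 10 mesothelial or epicardial genes was called by edgeR, but 8 had an unadjusted p under 0.05 and were higher, against 5.69% of all genes, and their median log2 fold change was 1.15, against 0.01 over all genes. Without Isl1_hypo replicate 1 their median was 1.21, with 6 of 10 higher at an unadjusted p under 0.05, beside a median of −0.00 and a share of 6.48% over all genes in that fit. This list and those below were chosen with earlier results of these data known, so that their counts are a description and not a test. Nor are the 10 genes separate results, since 9 of them were lowest in the same library, CTRL replicate 1. Without CTRL replicate 1 the log2 fold change was 0.77 for Krt8, 0.64 for Krt18 and 0.56 for Krt19. The part that the amount of mesothelium in each dissection had in the keratin levels was not tested.

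In the other epithelial lists no gene of the 8 tested other claudins, 7 other keratins, 11 junction and polarity genes, 9 desmosome genes or 11 epithelial regulators and proteases was called by edgeR, and of these 46 genes 6 had an unadjusted p under 0.05 and were higher and 2 were lower, beside 5.69% and 6.17% of all genes tested. Of the 47 tested without Isl1_hypo replicate 1, 2 were higher and 5 lower, beside 6.48% and 7.36% of all genes. The median log2 fold changes of the 5 lists, in that order, were 0.64, 0.04, −0.03, 0.16 and 0.74, against 0.01 over all genes, and without Isl1_hypo replicate 1 they were 0.24, 0.03, −0.02, 0.03 and −0.41, against −0.00 over all genes. Cldn12, the most abundant claudin, had a log2 fold change of 0.11 (SE 0.146), and Cldn5, the endothelial claudin, of −1.12 (SE 0.418, with an adjusted p of 0.317 by edgeR). Among the desmosome genes the largest means were those of Dsp, with a log2 fold change of −0.46 (SE 0.122), Pkp2 at 0.03 (SE 0.105), Jup at −0.39 (SE 0.252) and Perp at −0.24 (SE 0.123).

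Genes of the mesenchymal programme were present throughout. Cdh2, which encodes N-cadherin, the cadherin of heart muscle and mesenchyme, stood at 234 to 305 CPM in CTRL and at 168 to 275 CPM in Isl1_hypo, far above Cdh1 in every library, Isl1_hypo replicate 1 included (233 against 15.3 CPM). Vim stood at 1385 CPM and Fn1 at 998 CPM in that library, within the range of the others. Of 11 mesenchyme and EMT genes tested none was called by edgeR and 3 had an unadjusted p under 0.05, all lower in Isl1_hypo (6.17% of all genes were lower at that level), with a median log2 fold change of −0.26. Among them was Snai1, named after its values were seen, which stood at 34.8 to 47.9 CPM in CTRL and at 29.3, 26.2, 10.3 and 22.2 CPM in Isl1_hypo, without overlap. Only 1 of the 11 genes was lower without overlap, beside 613 of 13769 genes tested. The related repressors Snai2, Zeb1 and Zeb2 had log2 fold changes of 0.06 (SE 0.164), 0.04 (SE 0.109) and −0.22 (SE 0.135). Whether these repressors had a part in the member levels was not tested.

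No gene of the remaining marker lists was called by edgeR either, and the counts that follow stand beside 5.69% of all genes higher and 6.17% lower at an unadjusted p under 0.05. Of 5 endothelial genes tested 2 had an unadjusted p under 0.05 and both were lower in Isl1_hypo (median log2 fold change −0.54), as were 2 of 9 cardiac muscle genes (median −0.18), 1 of 4 neural genes (median −0.25) and 1 of 2 notochord genes. None of 3 endoderm genes (median −0.31) and none of 3 liver and yolk sac genes (median 0.28) reached an unadjusted p under 0.05, and of 5 surface ectoderm genes 1 was higher (Wnt6) and 1 lower at that level. Without Isl1_hypo replicate 1 the surface ectoderm count became 0 higher and 2 lower of 5, and the counts lower in Isl1_hypo became 1 of 9 for cardiac muscle, 2 of 4 for neural, 1 of 4 for endoderm and 1 of 11 for mesenchyme and EMT genes, beside 7.36% of all genes.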

How the data were processed

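RNA of 4 CTRL and 4 Isl1_hypo OFT/RV samples, 1 embryo each, was sequenced from poly(A) transcripts. The authors aligned reads to mm9 with STAR (alignIntronMin 20, alignIntronMax 500000) and counted exon reads per RefSeq transcript with HOMER, ignoring strand, so that overlapping genes are not separable. The deposited table holds these raw counts, RPKM values that the authors made with edgeR (used only to order levels between genes), and columns of the authors' DESeq2 comparison (mean signal, fold change, its error, statistic and p-values), which were not used. The versions of STAR, HOMER, DESeq2 and edgeR that the authors used are not given in the sources used here.

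Of 31507 transcripts, 1 per symbol was kept (20701 symbols; 5808, 4 members among them, had more than 1). edgeR 4.0.16 in R 4.3.3 was run on the counts as deposited: filterByExpr, TMM scaling, glmQLFit and glmQLFTest without covariates, Benjamini-Hochberg adjustment over all genes tested, threshold 0.05. SE is the fold change divided by the square root of F, and 95% intervals use the t quantile at the test's degrees of freedom. Ratios of 2 libraries carry exact intervals for 2 counts. The biological coefficient of variation was 26.4%. Each p-value sets the difference between the groups against the variation between embryos, estimated with information shared across genes. The scripts were tested on simulated data.

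The members and all gene lists were chosen with earlier results of these data known. Named genes were Isl1, the members, list genes standing apart in a library or among the 4 of highest mean CPM, and up to 20 others with the largest ratio. Alternatives were DESeq2 1.42.0, RLE size factors, no filter, the longest transcript, a replicate block, other limits for standing apart, and leaving out each library; the block without Isl1_hypo replicate 1 and the count of genes standing apart without Isl1_hypo replicate 3 were chosen after seeing the data. Positions are from GENCODE for mm9; promoter sequences are from RefSeq (GRCm38.p6) and were used as sequence only. The result of 1 gene is not reported here.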

Additional observations from a re-analysis of the deposited data

Results flagged for a closer look

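In each group of 4 libraries the gap of the highest or lowest value to its neighbour was divided by the range of the group and compared with Dixon's 95% critical value for 4 values. Of 50 groups of 4 values examined, 6 passed, and chance passes about 1 in 20 groups. The 6 cannot be read against that share. Both Foxa2 groups are void, since 3 of their 4 libraries were at 0 and any single count then passes. Cldn6 and the regulators and proteases in Isl1_hypo rest on replicate 1, the library for which the members were chosen. For Cldn6 in Isl1_hypo the quotient was 0.845, with replicate 1 at a log2 CPM (prior count 2) of 5.27 and the others at −4.05 to −2.61. For Krt18 in CTRL it was 0.901, with replicate 1 lowest at 5.42 and the others at 6.12 to 6.19. For Foxa2 it was 1 in CTRL, through 1 count in replicate 4, and 1 in Isl1_hypo, through 5 counts in replicate 1.

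The summed CPM of the other claudins in CTRL gave 0.912, with replicate 1 lowest at a log2 CPM of 5.99 and the others at 6.57 to 6.62. The summed CPM of the epithelial regulators and proteases in Isl1_hypo gave 0.856, with replicate 1 highest at 7.60 and the others at 5.41 to 5.72.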

How the results depend on the processing

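The 37 genes called by edgeR became 319 with DESeq2 and between 4 (without CTRL replicate 3) and 48 (without Isl1_hypo replicate 3) when each library was left out, with 8 without CTRL replicate 1, 5 without CTRL replicate 2, 12 without Isl1_hypo replicate 2 and 11 without Isl1_hypo replicate 4. Without Isl1_hypo replicate 1, the 27 genes called became 394 with DESeq2 and 65 without the filter on low counts. Genes standing apart in Isl1_hypo replicate 1 numbered 92 at a ratio of at least 3 and 33 at a ratio of at least 10, in place of 51. Leaving out Isl1_hypo replicate 1 reversed Cldn4 (−0.73, and up to 2.43 without Isl1_hypo replicate 2) and Cldn7 (−0.39, and up to 1.38 without Isl1_hypo replicate 4). The cause of the changes between tools was not tested.

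With the replicate number as a block, edgeR called 0 genes (1582 at an unadjusted p under 0.05, and 319 called by DESeq2 without the block), and 0 without Isl1_hypo replicate 1 (1407 at an unadjusted p under 0.05, DESeq2 394 without the block). Isl1 stayed at −2.29 under the block with an adjusted p of 0.0722 (range over its 13 alternatives −2.46 to −2.14). The deviations of same-numbered libraries had correlations of −0.0209 to 0.0219, and only those of number 1 correlated best with their own number. What the numbers mark is not stated. Correlations over all genes tested cannot decide it, since a shared litter or batch may act on few genes. Block estimates were 1.18 for Epcam, 0.18 for Cldn4, 0.34 for Cldn7, 0.91 for Krt8, 0.79 for Krt18 and 0.75 for Krt19.

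The keratins were higher in Isl1_hypo under all 13 alternatives each, from 0.75 to 1.07 for Krt8, 0.64 to 0.93 for Krt18 and 0.46 to 0.92 for Krt19. Krt19 was at 0.46 without Isl1_hypo replicate 3, the library where it was highest, against 0.77 with all libraries. Of these the adjusted p was under 0.05 for Krt8 (0.00513) and Krt18 (0.0109) with DESeq2 on all 8 libraries and for no other. The alternatives reuse the same libraries, and the keratins were chosen with these values known. The shared sign is therefore a description and not separate support. For members at 0 in a library, 0 counts allow 0.0641 to 0.112 CPM.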
